A study of Apera spica-venti with 32 samples.

Results

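Cell wall building and loosening genes were examined in leaves of Apera spica-venti, a weedy grass of cereal fields, from unsprayed plants and plants sprayed with pinoxaden. Pinoxaden blocks acetyl-CoA carboxylase, the enzyme that starts fatty acid synthesis. The members were the features of the authors' deposited table whose protein description held 1 of 15 terms (expansin, xyloglucan, polygalacturonase, pectin, pectate, cellulose synthase, glucan endo-1,3-beta, callose, arabinogalactan, fucosidase, fasciclin, galacturonosyltransferase, QUASIMODO, chitinase or COBRA). They numbered 82 of 39590 features in the count table, and only the 7967 features that the authors called changed in at least 1 of 4 comparisons carried a description. By their descriptions 58 members were enzymes and proteins of wall growth, 17 were defence enzymes (chitinases and beta-1,3-glucanases) and 7 made or bound callose. Every member therefore differed somewhere by selection, and counts in those 4 comparisons are given as a description, without a p-value.

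The plants came from 2 susceptible populations, S1 and S2, and 2 populations resistant to several herbicides, R1 and R2. They were grown in a greenhouse at 21 °C to BBCH stage 12 to 13. Sprayed plants received pinoxaden once at 45 g/ha and their leaves were frozen 8 h later, and the controls of each population were left unsprayed. Each of the 8 groups had 4 libraries of total RNA, each library from 3 plants. No spray without herbicide and no harvest time of the controls is recorded, so herbicide, spraying and time of day cannot be told apart, and resistance is represented by only these 2 populations.

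The plant cell wall is a network of polymers, among them cellulose, xyloglucan, pectin and, in grasses, mixed-linkage glucan. It extends when expansins loosen the contacts between polysaccharides and when enzymes cut, rejoin or trim the polymers, while synthases and transferases add new material. Chitinases and beta-1,3-glucanases are best known for cutting the walls of fungi, and callose is a beta-1,3-glucan that plants lay down at plasmodesmata and at sites of attack.

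Total counts ran from 26213780 to 46062806 per library. Expression levels are given in CPM, the usual relative abundance per library total, with totals adjusted by trimmed-mean (TMM) factors, and since no transcript lengths were used they are compared between libraries and not between genes. Of the 82 members, 80 passed the filter on low counts, namely 57 growth, 16 defence and 7 callose members. The endochitinase A feature TRINITY_DN91150_c0_g3_i1.p1 with 126 counts and the probable pectinesterase 66 with 81 counts over the 32 libraries did not. The 82 members lay on 70 assembled genes, 11 of which held 23 members as separate reading frames, so that such members are not independent. The leaf label was checked against 40 described features of mesophyll (chlorophyll-binding proteins, Rubisco and the like), all of which passed the filter, and whose summed level took 42.4 to 73.1 percent of the scaled library size. Described features had been called changed by the authors, so only the summed level bears on the label.

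After spraying, 5 of 7 expansin features and a polygalacturonase were lower in all 4 populations, whereas an endotransglucosylase for xyloglucan, both COBRA-like proteins and a pair of arabinogalactan proteins were higher in all 4. A group of 3 chitinases was also higher in all 4, with the larger estimates in S1 and S2. In the susceptible populations 28 members were called higher and 31 lower, where called means an adjusted p under 0.05 in edgeR's quasi-likelihood fit. Of all 25036 features tested, 25.4 percent were called in that comparison, 13.5 percent higher and 11.8 percent lower. In the resistant populations 9 were called higher and 27 lower (9.14 percent of all features called, 5.63 percent higher and 3.51 percent lower). The members entered the list partly through these comparisons, so nothing is read from those shares. With scaling by library totals alone, the split in the susceptible populations was 35 higher and 13 lower, and that scaling moved the median of all features there to 0.30 on the log2 scale from -0.01.

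Growth and defence enzymes are given apart. Of 57 growth members, 17 were called higher and 25 lower in the susceptible populations (23 and 11 by library totals), and 9 higher and 23 lower in the resistant ones (9 and 17 by library totals). Their median log2 fold change was -0.21 in the susceptible and -0.46 in the resistant populations, beside a median over all features of about -0.01 in both. Of 16 defence members, 8 were called higher and 3 lower in the susceptible populations and 0 higher and 4 lower in the resistant ones, with medians of 0.91 and -0.04. DESeq2 called 3 defence members higher and 5 lower in the resistant populations. Of the 7 callose members, 3 were called higher and 3 lower in the susceptible populations and none in the resistant ones. Taking each population alone, 23 members had a log2 fold change above 0 in all 4 populations, 30 had one below 0 in all 4 and 27 were mixed.

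**Figure D1:**
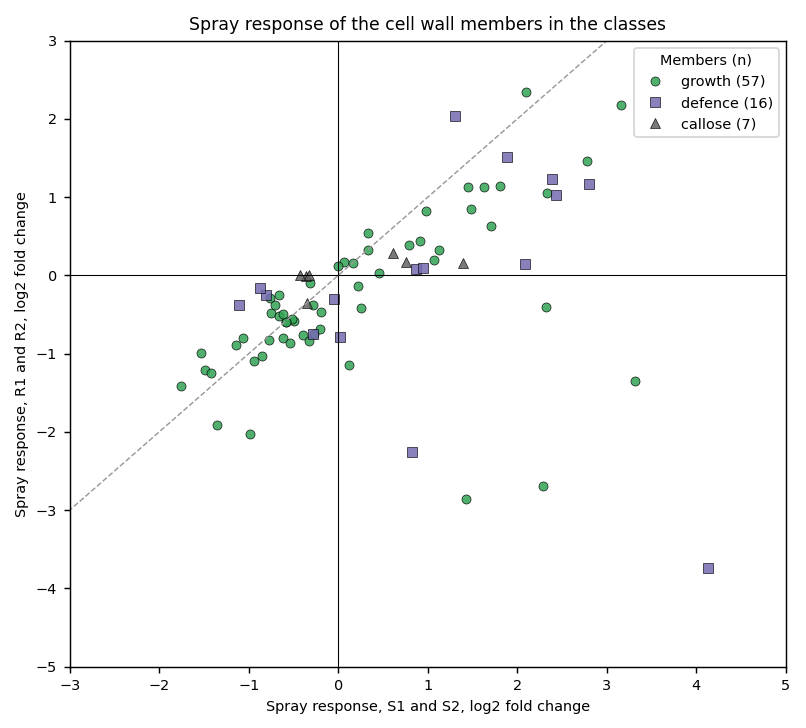
Each point is 1 of 80 members, placed by its log2 fold change after spraying in S1 and S2 (horizontal) and in R1 and R2 (vertical), with circles for growth, squares for defence and triangles for callose members, and a dashed line of equal response. Most growth members lie near the line, and a few members of very low count lie at the lower right. Several defence members lie to the right of the line, some near 0 on the vertical axis and others, such as Chitinase 1 and class IV endochitinase, above 0.

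The responses of the classes rest on different libraries, so each can be set beside the other. Of the 12 members that the authors' deposited table lists as higher in the resistant response, 11 were called higher in the susceptible libraries, where 86.4 percent of all 1422 features so listed were. Of the 29 tested members listed as lower in the resistant response, 18 were called lower in the susceptible libraries, where 59.3 percent of all 971 were, and all 18 were growth members. The defence member endochitinase A-like was called the opposite way, higher in the susceptible libraries. It was likewise the 1 member listed as higher in the susceptible response that was called lower in the resistant libraries. Its counts were few, with 1 in untreated and 34 in sprayed susceptible and 136 in untreated and 11 in sprayed resistant libraries. In the other direction, 9 of 30 members listed as higher in the susceptible response were called higher in the resistant libraries (36.4 percent of all 3417), and these were 9 of the 19 growth members, 0 of the 8 defence members and 0 of the 3 callose members. Their median log2 fold changes there were 0.64 (growth), 0.59 (defence) and 0.18 (callose), beside 0.46 for all features so listed. The authors list Chitinase 1 and the chitinase TRINITY_DN2572_c0_g2_i1.p1, of these 8, as higher in the resistant response too. Of the 31 listed as lower in the susceptible response, 18 were called lower in the resistant libraries (19.4 percent of all 2953), among them 17 of 25 growth members. These counts are a description of the members and of the features listed with them, and the difference between members and other features was not tested.

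Expansins are small proteins that loosen walls without cutting them. Of 7 expansins, 5 were called lower and 0 higher in each class, although by library totals 2 were called higher in the susceptible populations beside the 5 lower. The feature described as expansin EXPA11 (TRINITY_DN2746_c0_g1_i8.p1), an alpha-expansin, stood at 27.7, 29.1, 36.6 and 36.5 CPM in untreated S1 and at 12.1, 12.4, 7.49 and 18.3 CPM in sprayed S1. In S2 it went from 36.3, 28.6, 26.2 and 47.8 CPM untreated to 9.86, 13.5, 15 and 7.34 CPM sprayed. The highest sprayed library was below the lowest untreated library in both populations.

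In R1 EXPA11 measured 38.1, 35.1, 41.3 and 42.2 CPM untreated and 15.4, 12.1, 12.1 and 22.9 CPM sprayed. R2 had 49.5, 31.5, 31 and 37.3 CPM untreated and 17.9, 18, 19.7 and 14.7 CPM sprayed. The untreated and sprayed libraries did not overlap in R1 or in R2 either. Log2 fold changes of EXPA11 were -1.37 ± 0.24 (S1), -1.60 ± 0.25 (S2), -1.32 ± 0.24 (R1) and -1.09 ± 0.24 (R2) (estimate ± SE, n = 4 libraries a group). Here and below, the SE was derived from the fold change and the F statistic of its test and is approximate.

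Beta-expansins, the group that is prominent in grasses, were mostly of the same sign. Expansin-B11 (TRINITY_DN4162_c0_g1_i17.p3) had a lowest, median and highest level of 1.88, 2.55 and 5.10 CPM in the 8 untreated susceptible libraries and 0.406, 0.836 and 1.18 CPM in the 8 sprayed ones. In the resistant populations it had 2.38, 3.49 and 5.86 CPM untreated and 0.871, 1.27 and 2.03 CPM sprayed. As with EXPA11, no sprayed library reached an untreated library of its own population. Its log2 fold change was -1.76 ± 0.22 in the susceptible and -1.41 ± 0.21 in the resistant populations, and a further reading frame of the same contig gave -1.43 ± 0.27 and -1.24 ± 0.27. Beta expansin B2 had -1.07 ± 0.21 and -0.80 ± 0.20, and expansin-B7-like -1.15 ± 0.27 and -0.89 ± 0.27. Expansin-B3-like and EXPB4 stayed below 1 CPM in every library and were of mixed sign over the 4 populations.

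**Figure D2:**
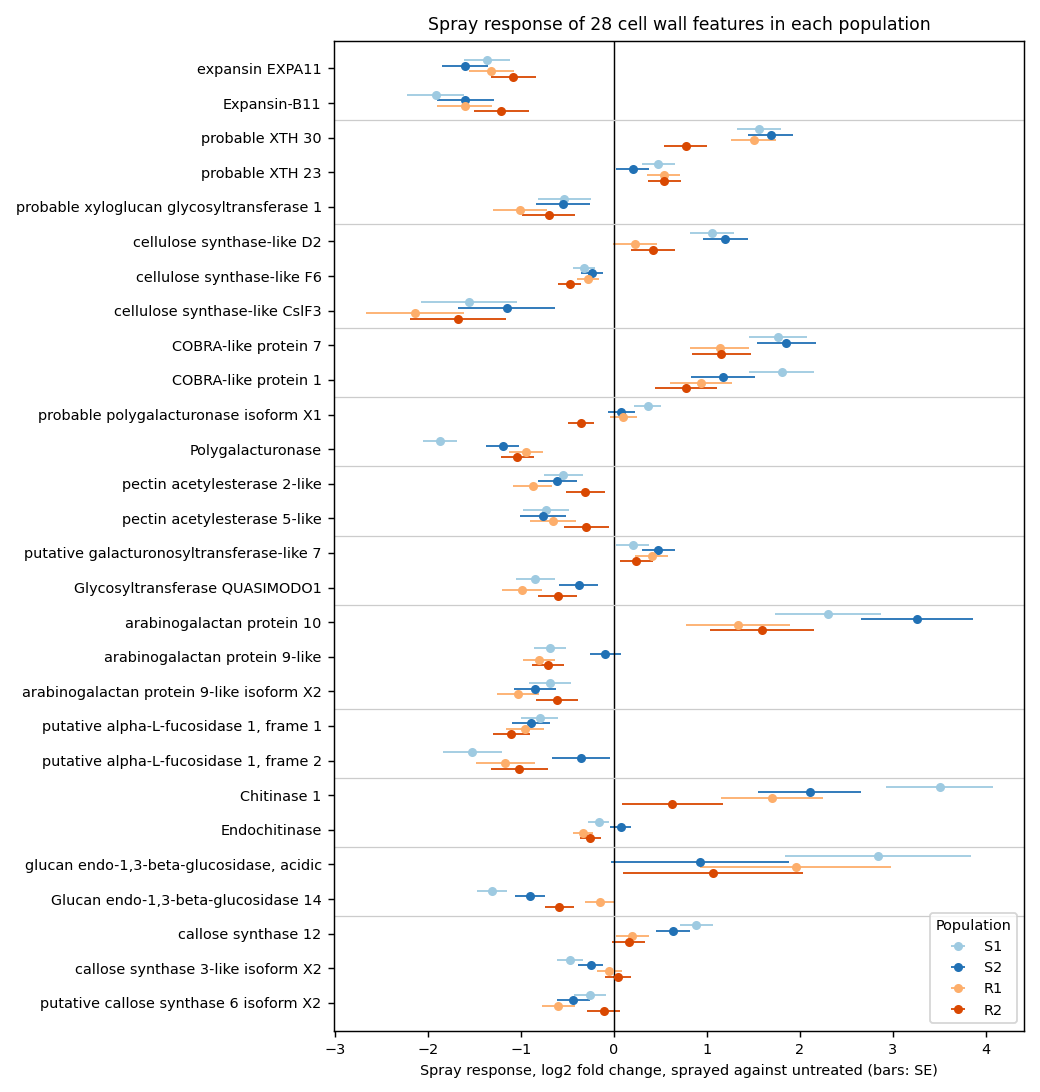
Points give the log2 fold change of sprayed against untreated leaves, coloured by population, for 28 members grouped by role, and bars give its SE (4 libraries a group). Both expansins lie left of 0 in all 4 populations, COBRA-like proteins 7 and 1 and arabinogalactan protein 10 lie right of 0 in all 4, and callose synthase 12 and Chitinase 1 lie farther right in S1 and S2 than in R1 and R2.

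Xyloglucan is a wall polymer that binds cellulose, and its enzymes went in both directions. Of 12 xyloglucan members, 7 were called higher and 2 lower in the susceptible populations, and 4 higher and 2 lower in the resistant ones (7 and 1, and 4 and 1, by library totals). Xyloglucan endotransglucosylase/hydrolases, or XTHs, cut xyloglucan chains and join the ends to others. The probable XTH 30 (TRINITY_DN7234_c0_g1_i2.p1) had a lowest, median and highest level of 3.62, 5.80 and 9.72 CPM in untreated and 12.4, 18.7 and 22.3 CPM in sprayed susceptible libraries. In the resistant populations these were 4.42, 6.22 and 9.15 CPM untreated and 9.52, 14 and 17.7 CPM sprayed. Sprayed libraries lay above the untreated ones of their own population in all 4. Its log2 fold change was 1.56 ± 0.24 in S1 and 1.69 ± 0.24 in S2, and 1.5 ± 0.24 in R1 and 0.77 ± 0.24 in R2.

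The probable XTH 23 was the XTH with the most counts, with medians of 92.7 CPM untreated and 119 CPM sprayed in the susceptible and 69.7 and 101 CPM in the resistant libraries, and its ranges overlapped except in S1. Its log2 fold changes were 0.34 ± 0.13 and 0.54 ± 0.13. XTH protein 8-like (TRINITY_DN87_c0_g1_i4.p5) was of opposite sign, at -0.66 ± 0.10 in the susceptible and -0.24 ± 0.10 in the resistant populations.

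Among the enzymes that build xyloglucan, a pair of probable glycosyltransferases of its glucan backbone had opposite signs. Xyloglucan glycosyltransferase 9 (TRINITY_DN6679_c0_g1_i15.p1) had 12.0, 15.8 and 18.1 CPM as lowest, median and highest level in untreated and 20.6, 31.7 and 41.4 CPM in sprayed susceptible libraries. The resistant libraries had 12.1, 15.1 and 17.4 CPM untreated and 22.2, 26.6 and 31.7 CPM sprayed. The sprayed libraries were the higher ones throughout, with no overlap in either class, and the log2 fold changes were 0.98 ± 0.12 and 0.83 ± 0.12. Xyloglucan glycosyltransferase 1 had -0.54 ± 0.20 in the susceptible and -0.86 ± 0.20 in the resistant populations, with overlapping ranges in all populations but S2. A xyloglucan 6-xylosyltransferase, which adds the xylose side chains, had 0.91 ± 0.15 and 0.45 ± 0.15.

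The putative alpha-L-fucosidase 1, by its description an enzyme that removes fucose, was present as 2 reading frames of 1 contig. The frame with more counts (TRINITY_DN8468_c0_g2_i1.p1) had medians of 5.54 CPM untreated and 3.04 CPM sprayed in the susceptible and 7.32 and 3.39 CPM in the resistant libraries. Its untreated and sprayed libraries did not overlap in any population. Sprayed against untreated, it had -0.85 ± 0.14 and -1.03 ± 0.14 on the log2 scale.

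Members of the cellulose synthase family were called higher in 1 and lower in 2 of 6 cases in the susceptible populations (3 and 1 by library totals) and lower in 2 of 6 in the resistant ones. CSLF genes make mixed-linkage glucan in barley and other grasses. CslF3 (TRINITY_DN93602_c0_g1_i22.p1) had 3.05, 6.36, 6.41 and 4.09 CPM in untreated and 1.39, 2.89, 0.486 and 1.97 CPM in sprayed S1. R1 had 8.66, 5.89, 4.65 and 7.71 CPM untreated and 0.456, 1.02, 0.738 and 3.77 CPM sprayed. Sprayed libraries were below untreated ones in S1, S2 and R1, and in R2 an untreated library at 1.17 CPM lay within the sprayed range. The log2 fold change was -1.36 ± 0.37 in the susceptible and -1.91 ± 0.37 in the resistant populations.

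CSLF6, with far more counts, moved less. Its median was 69.3 CPM in untreated and 54.3 CPM in sprayed susceptible libraries, and 68.8 and 50.1 CPM in the resistant ones. The log2 fold changes were -0.28 ± 0.08 and -0.38 ± 0.08, the former being 0.03 with scaling by library totals, so its direction in the susceptible populations depends on the scaling. CSLD2, whose Arabidopsis relatives act in root hair growth, had 1.12 ± 0.17 in the susceptible and 0.32 ± 0.17 in the resistant populations.

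COBRA-like proteins are anchored at the cell surface, and in Arabidopsis COBRA orients cellulose. COBRA-like protein 7 (TRINITY_DN34267_c0_g1_i1.p1) had a lowest, median and highest level of 1.27, 1.84 and 2.91 CPM in untreated and 3.58, 6.71 and 11.1 CPM in sprayed susceptible libraries. The resistant libraries had 1.04, 1.49 and 2.78 CPM untreated and 2.38, 3.63 and 5.09 CPM sprayed. The ranges overlapped only in R1, where untreated replicate 1 stood at 2.78 CPM beside a lowest sprayed value of 2.62 CPM. Log2 fold changes were 1.81 ± 0.22 and 1.14 ± 0.22. COBRA-like protein 1 had 1.49 ± 0.25 and 0.86 ± 0.24, with no overlap in any population.

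**Figure D3:**
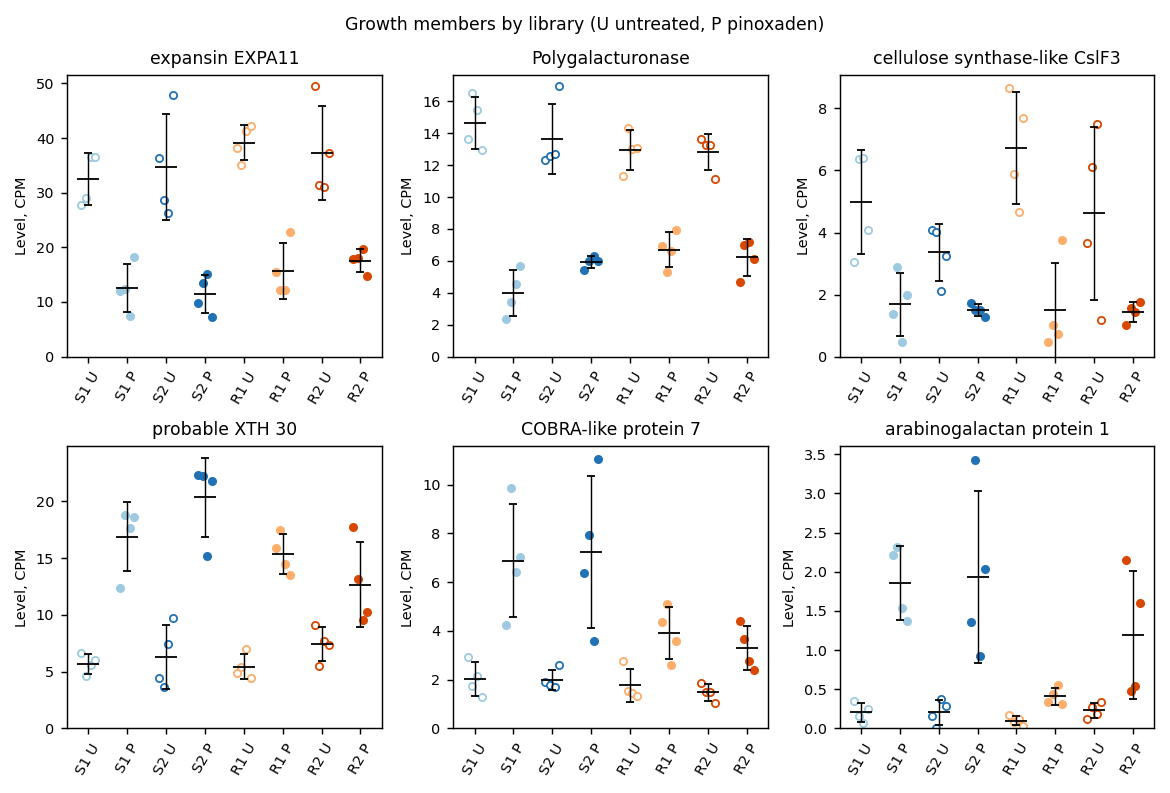
Levels in CPM of 6 growth members are plotted for every library of the 8 groups, with open points for untreated (U) and filled points for pinoxaden-sprayed (P) leaves and a bar for the mean ± SD of 4 libraries. EXPA11, the polygalacturonase and CslF3 are lower after spraying, XTH 30, COBRA-like protein 7 and arabinogalactan protein 1 are higher, and in R1 the arabinogalactan protein 1 libraries stay between 0.316 and 0.553 CPM after spraying.

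Pectin is cut by polygalacturonases after its methyl groups are removed. Of 5 polygalacturonases, 3 were called lower in the susceptible and 2 in the resistant populations and none higher, while by library totals 1 was called higher and 1 lower in the susceptible populations. The polygalacturonase with the most counts (TRINITY_DN7008_c0_g1_i11.p1) had 13.7, 16.5, 15.4 and 12.9 CPM in untreated S1 and 2.34, 3.41, 4.52 and 5.70 CPM in sprayed S1. S2 had 12.3, 12.6, 12.7 and 16.9 CPM untreated and 5.44, 6.01, 6.31 and 5.99 CPM sprayed. Sprayed libraries were well below untreated ones, with the lowest values in sprayed S1.

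The same polygalacturonase had 11.3, 14.3, 13.0 and 13.1 CPM in untreated R1 and 6.93, 5.29, 6.60 and 7.95 CPM in sprayed R1. In R2 the values were 13.6, 13.3, 13.3 and 11.2 CPM untreated and 4.65, 6.98, 7.19 and 6.12 CPM sprayed. The ranges were apart in all 4 populations, with log2 fold changes of -1.87 ± 0.18 and -1.20 ± 0.18 in S1 and S2 and of -0.95 ± 0.18 and -1.04 ± 0.18 in R1 and R2.

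Of 8 esterases and other modifiers of pectin, 2 were called higher and 4 lower in the susceptible populations (2 and 0 by library totals) and 0 higher and 3 lower in the resistant ones. Pectin acetylesterases remove acetyl groups. Pectin acetylesterase 2-like (TRINITY_DN14830_c0_g1_i6.p2) had medians of 14.7 CPM untreated and 8.95 CPM sprayed in the susceptible and 20.4 and 12.7 CPM in the resistant libraries, with overlap in S1 and R2. Its log2 fold changes were -0.58 ± 0.15 and -0.59 ± 0.15, and pectin acetylesterase 5-like had -0.75 ± 0.17 and -0.48 ± 0.17. The features described as pectin acetylesterase 8 were of opposite sign at low level, with medians of 0.146 CPM untreated and 0.459 CPM sprayed in the susceptible libraries for the one with more counts.

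Galacturonosyltransferases lengthen the pectin backbone, and of 9 members 3 were called higher and 3 lower in the susceptible populations (4 and 0 by library totals) and 1 higher and 4 lower in the resistant ones. QUASIMODO1, which in Arabidopsis is needed for pectin and cell adhesion, had a median of 3.91 CPM in untreated and 2.52 CPM in sprayed susceptible libraries, and 4.40 and 2.5 CPM in the resistant ones. Its log2 fold changes were -0.61 ± 0.15 and -0.80 ± 0.15. Galacturonosyltransferase 15 had -0.59 ± 0.18 and -0.60 ± 0.18, and galacturonosyltransferase-like 7, the member with the most counts, 0.34 ± 0.13 and 0.32 ± 0.13. Galacturonosyltransferase-like 9 was at most 0.992 CPM in any library and had 2.10 ± 0.49 and 2.35 ± 0.51.

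Arabinogalactan and fasciclin-like proteins are heavily glycosylated proteins of the wall and membrane surface. Of 6 members, 2 were called higher and 4 lower in the susceptible populations (2 and 1 by library totals) and 2 higher and 3 lower in the resistant ones. Arabinogalactan protein 10 (TRINITY_DN10951_c0_g2_i3.p1) had a lowest, median and highest level of 0.0960, 0.228 and 0.980 CPM in untreated and 1.36, 1.95 and 3.62 CPM in sprayed susceptible libraries. In the resistant libraries these were 0.0627, 0.467 and 1.13 CPM untreated and 0.678, 1.35 and 2.04 CPM sprayed. Sprayed libraries were above untreated ones within each population, although in R1 the gap was small. The log2 fold changes were 2.78 ± 0.41 and 1.46 ± 0.39.

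Arabinogalactan protein 1 (TRINITY_DN3050_c0_g2_i1.p2) had 3.16 ± 0.43 in the susceptible and 2.18 ± 0.44 in the resistant populations. The lower members were fasciclin-like protein FLA3 at -0.50 ± 0.13 and -0.58 ± 0.13, fasciclin-like arabinogalactan protein 12 at -0.52 ± 0.19 and -0.56 ± 0.19, and the arabinogalactan protein 9-like features. Of the latter, isoform X2 (TRINITY_DN6750_c0_g1_i6.p1) had medians of 11.2 CPM untreated and 6.89 CPM sprayed in the susceptible and 12.2 and 7.42 CPM in the resistant libraries, with no overlap in any population. Its log2 fold changes were -0.77 ± 0.16 and -0.83 ± 0.16.

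Among the defence members, chitinases had their higher fold changes in the susceptible populations. Of 5 chitinases that passed the filter, 4 were called higher in the susceptible populations and none lower, and in the resistant populations 0 were called higher and 2 lower. That count depends on the tool, since DESeq2 called 2 higher and 2 lower there, and the authors' deposited table lists both Chitinase 1 and the feature TRINITY_DN2572_c0_g2_i1.p1 as higher in the resistant response. Chitinase 1 (TRINITY_DN28729_c0_g1_i1.p1) had 0.344, 0.576, 0.268 and 0.624 CPM in untreated S1 and 7.50, 4.48, 7.68 and 1.15 CPM in sprayed S1. In S2 it had 0.328, 0.732, 0.505 and 0.626 CPM untreated and 1.05, 1.87, 1.66 and 4.87 CPM sprayed. Every sprayed library of S1 and S2 was above every untreated library of its population, and the sprayed libraries varied widely.

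In R1 Chitinase 1 had 1.27, 0.577, 0.597 and 0.313 CPM untreated and 2.98, 1.39, 2.55 and 2.13 CPM sprayed. R2 had 0.200, 0.664, 0.742 and 1.5 CPM untreated and 1.77, 0.918, 0.923 and 1.09 CPM sprayed. The groups overlapped in R2 and did not in R1. Its log2 fold change was 3.50 ± 0.57 in S1 and 2.11 ± 0.55 in S2, against 1.70 ± 0.54 in R1 and 0.63 ± 0.54 in R2.

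Class IV endochitinase (TRINITY_DN7578_c1_g1_i2.p1) had a lowest, median and highest level of 2.75, 5.13 and 13.5 CPM in untreated and 15.5, 26.7 and 62.7 CPM in sprayed susceptible libraries. The resistant libraries had 4.31, 5.63 and 11.9 CPM untreated and 3.36, 13.0 and 28.2 CPM sprayed. All sprayed susceptible libraries were above all untreated ones, and R2 overlapped. The log2 fold changes were 2.44 ± 0.41 and 1.02 ± 0.40, and a further feature described as chitinase (TRINITY_DN2572_c0_g2_i1.p1) had 2.38 ± 0.41 and 1.24 ± 0.41. Sprayed R2 replicate 1 had 1037 counts of class IV endochitinase, beside 121, 355 and 212 in the other sprayed R2 libraries. For the further feature it had 233 counts, beside 30, 59 and 80. Over all 80 members the difference of responses between the classes was called for 5 (0.563 percent of all features called), and for none of these 3 chitinases. The Endochitinase with the most counts (TRINITY_DN12457_c0_g2_i2.p1) had medians of 25.3 and 23.6 CPM in untreated and sprayed susceptible and 26.8 and 21.7 CPM in resistant libraries, with overlap in all populations.

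Beta-1,3-glucanases also cut callose, so they serve growth and signalling as well as defence. Of 11 members, 4 were called higher and 3 lower in the susceptible populations and 0 higher and 2 lower in the resistant ones. A glucan endo-1,3-beta-glucosidase (TRINITY_DN3963_c0_g2_i2.p1) had a lowest, median and highest level of 2.83, 3.49 and 3.90 CPM in untreated and 5.34, 5.97 and 7.42 CPM in sprayed susceptible libraries. In the resistant libraries it had 3.98, 4.83 and 5.85 CPM untreated and 3.66, 5.42 and 7.02 CPM sprayed. Untreated resistant libraries were all above untreated susceptible ones, and after spraying the classes overlapped. The response was 0.86 ± 0.11 in the susceptible and 0.09 ± 0.11 in the resistant populations, and a further reading frame of the contig gave 0.95 ± 0.12 and 0.09 ± 0.12.

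A member of opposite sign was TRINITY_DN10141_c0_g1_i14.p1, described as glucan endo-1,3-beta-glucosidase 14. It had 15.1, 18.9 and 21.7 CPM as lowest, median and highest level in untreated and 6.30, 8.71 and 10.6 CPM in sprayed susceptible libraries. The resistant libraries had 9.38, 14.6 and 16.9 CPM untreated and 9.27, 9.97 and 16.3 CPM sprayed. The groups were apart in S1, S2 and R2. They overlapped in R1, where the log2 fold change was -0.15 ± 0.16, beside -1.31 ± 0.16 in S1, -0.90 ± 0.16 in S2 and -0.59 ± 0.16 in R2. The acidic isoform (TRINITY_DN3093_c0_g1_i4.p1) ranged from 0.0290 to 22.4 CPM with single libraries far above the rest, and its response was 1.88 ± 0.69 and 1.51 ± 0.71, falling to 0.66 in the resistant populations without sprayed R2 replicate 1.

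**Figure D4:**
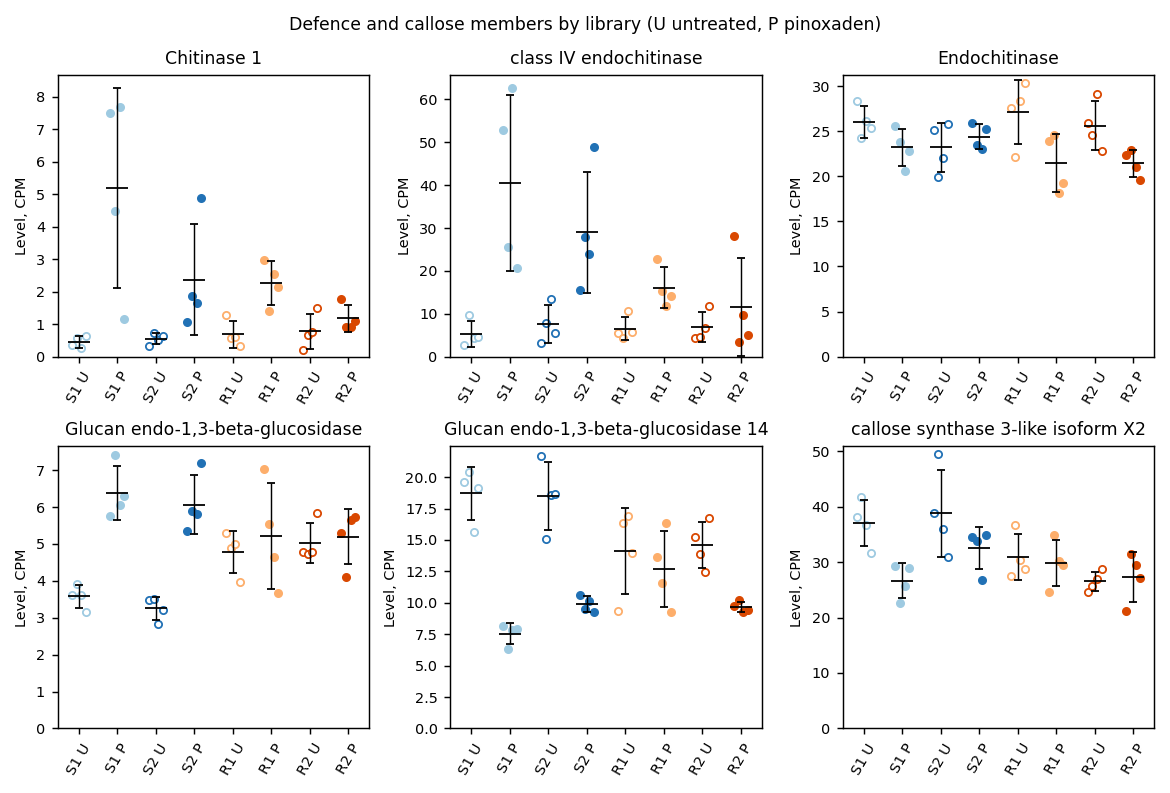
Levels in CPM of 5 defence members and 1 callose synthase are plotted for every library of the 8 groups, with open points for untreated (U) and filled points for pinoxaden-sprayed (P) leaves and a bar for the mean ± SD of 4 libraries. Chitinase 1 and class IV endochitinase are high and scattered in sprayed S1 and S2, Endochitinase varies little, and the glucan endo-1,3-beta-glucosidase is lowest in untreated S1 and S2.

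Callose synthases build callose. Callose synthase 3-like isoform X2 (TRINITY_DN1419_c0_g1_i1.p1) had medians of 37.5 CPM untreated and 29.1 CPM sprayed in the susceptible and 28.1 and 29.4 CPM in the resistant libraries, with overlap in all populations but S1. Its log2 fold change was -0.37 ± 0.10 in the susceptible populations and between -0.05 and 0.04 in R1 and R2. Callose synthase 12, which in Arabidopsis makes the callose of wounds and papillae, had 0.76 ± 0.13 in the susceptible and 0.18 ± 0.13 in the resistant populations. Callose synthase 6 had -0.35 ± 0.12 and -0.36 ± 0.12. By library totals, 3 callose members were called higher and 0 lower in the susceptible populations.

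Between the classes, fewer members stood apart. In untreated leaves 12 members were called higher and 4 lower in the resistant than in the susceptible populations (4.12 percent of all features called, 2.76 percent higher and 1.36 percent lower). After spraying 3 were called higher and 4 lower (2.3 percent of all features called, 1.55 percent higher and 0.751 percent lower). The untreated count fell to 8 higher and 0 lower without untreated R1 replicate 1, and by library totals it was 27 higher and 1 lower. By library totals the calls over all features were 3124 higher and 141 lower, against 691 and 341 in the main fit. The 3 callose synthase 3 features, lower in untreated resistant leaves by -0.85 ± 0.21, -0.41 ± 0.10 and -0.37 ± 0.10, were not called without untreated R1 replicate 1. The 3 members higher under both conditions were the reading frames of CSLH1, and genes of that group make mixed-linkage glucan in barley.

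CSLH1 (TRINITY_DN11289_c0_g1_i27.p1) had 19.2, 20.2, 17.8 and 20.1 CPM in untreated S1 and 19.1, 22.8, 24.0 and 22.7 CPM in untreated S2. Untreated R1 had 26.8, 34.1, 32.5 and 28.2 CPM and untreated R2 33.0, 34.1, 34.5 and 54.4 CPM. All untreated resistant libraries were above all untreated susceptible ones. After spraying the lowest, median and highest levels were 17.1, 21.1 and 32 CPM in the susceptible and 25.9, 40.4 and 50.2 CPM in the resistant libraries, which overlapped.

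The log2 difference of CSLH1 between resistant and susceptible populations was 0.73 ± 0.12 untreated and 0.84 ± 0.12 sprayed, and the other reading frames gave 0.72 to 0.78 untreated and 0.72 to 0.90 sprayed. The calls of all 3 frames held under each alternative that was run. The frames share a contig and were listed through these same comparisons, so this is no separate support. COBRA-like protein 1 was also higher in untreated resistant leaves, by 1.10 ± 0.25, with medians of 0.821 and 1.74 CPM. COBRA-like protein 7 and the probable polygalacturonase isoform X1 (TRINITY_DN25495_c0_g1_i11.p1) were lower in sprayed resistant leaves, by -0.97 ± 0.22 and -0.47 ± 0.10. With 2 populations a class, a difference between classes and a difference between populations cannot be told apart.

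**Figure D5:**
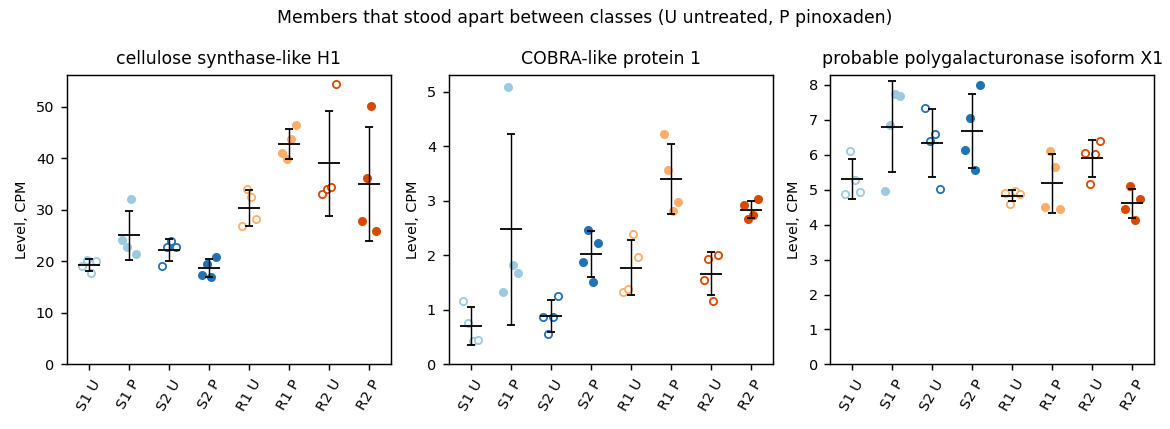
Levels in CPM of CSLH1, COBRA-like protein 1 and the probable polygalacturonase isoform X1 are plotted for every library of the 8 groups, with open points for untreated (U) and filled points for pinoxaden-sprayed (P) leaves and a bar for the mean ± SD of 4 libraries. CSLH1 is higher in R1 and R2 than in S1 and S2 before spraying with no overlap, COBRA-like protein 1 has higher untreated means in R1 and R2 and is higher after spraying in each population, and the polygalacturonase is lowest in sprayed R2.

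Some members with few counts had a large share of them in untreated R1 replicate 1. The XTH 9 feature TRINITY_DN4413_c0_g1_i4.p1 had 741 counts over all 32 libraries, and 386 of them, or 52.1 percent, were in that library. The other untreated R1 libraries had 7, 59 and 13 counts, and the 8 untreated susceptible libraries had 18 together. XTH 28 had 171 of its 608 counts in that library, endochitinase A-like 60 of 182, endochitinase A 51 of 126 and a pectin methylesterase inhibitor 144 of 752. Between untreated classes XTH 28 had a log2 difference of 4.58 ± 0.91, and the calls of both XTH 9 reading frames were lost without that library. XTH 28 and endochitinase A-like were called in that comparison under all 21 alternatives, also without that library. Members were chosen partly through that comparison, so this describes the dependence on processing and is no separate support. In sprayed leaves the sums were 39 counts of XTH 9 in the susceptible and 80 in the resistant libraries. In that library the summed level of 23 described features of dividing cells (histones, cyclins and the like) was 209 CPM, beside 120 to 154 CPM in the other 31 libraries. The part of dividing cells in these counts was not tested.

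Comparisons between populations of 1 class were not used to choose the members, and they could be tested. None of the 80 members was called in any of these 6 comparisons by edgeR's quasi-likelihood test or by DESeq2. Over all features, 0.00799 percent were called in untreated S2 against S1, 1.34 percent in sprayed S2 against S1, 0.0399 percent in untreated R2 against R1 and 0.407 percent in sprayed R2 against R1. For the difference of the spray responses, 0.028 percent were called for S2 against S1 and 0.00399 percent for R2 against R1. Without adjustment, 2, 11, 7, 4, 7 and 7 members had p under 0.05 by edgeR in these 6 comparisons, and 3, 12, 7, 4, 8 and 6 by DESeq2. The share of all features at that unadjusted threshold is not given here, so nothing is read from these counts. Features that vary between populations of 1 class had less chance of being listed by the authors, who compared whole classes.

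Each comparison is given here by its lowest-p member. Galacturonosyltransferase 15 was lower in S2 than in S1 when untreated, by -0.59 ± 0.25 (edgeR, adjusted p = 0.868), and lower in R2 than in R1, by -0.80 ± 0.25 (edgeR, adjusted p = 0.382). The polygalacturonase with the most counts was higher in sprayed S2 than in sprayed S1, by 0.57 ± 0.18 (edgeR, adjusted p = 0.119). Arabinogalactan protein 1 was higher in sprayed R2 than in sprayed R1, by 1.54 ± 0.57 (edgeR, adjusted p = 0.289). For the difference of spray responses, the probable XTH on contig DN5375 had 1.24 ± 0.42 for S2 against S1 (edgeR, adjusted p = 0.394) and CSLH1 had -0.65 ± 0.23 for R2 against R1 (edgeR, adjusted p = 0.744). None of these passed the test. For 50 to 54 of the 80 members the level differed by less than 1 on the log2 scale between the populations of a class even at 2 SE beyond the estimate, and for the difference of responses this held for 33 members in each class.

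Other described wall genes outside the list were few. Of 37 tested (endoglucanases, xylosidases, xylan and arabinose enzymes and others), 14 were called higher and 16 lower in the susceptible and 5 higher and 11 lower in the resistant populations. Beta-D-xylosidase 3-like had -1.55 ± 0.18 and -0.98 ± 0.17, and endoglucanase 7-like, of a family that cuts beta-1,4-glucan, had 1.32 ± 0.19 and 0.98 ± 0.19. Of 13 other described defence genes, 7 were called higher and 3 lower in the susceptible and 4 higher and 2 lower in the resistant populations. Over all features, 25.4 percent were called in the susceptible and 9.14 percent in the resistant populations. Both lists hold only features that the authors called changed, so nothing is read from these counts. A thaumatin-like protein 1b had 2.03 ± 0.29 and 1.55 ± 0.28. In the susceptible populations germin-like protein 8-14 had -0.78 ± 0.11 and thaumatin-like protein 1 isoform X2 -0.78 ± 0.17. The summed level of these defence genes was 512 to 769 CPM in untreated and 276 to 659 CPM in sprayed libraries.

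Markers of other leaf cells moved with spraying too. Of 40 mesophyll features 35 were called lower and 1 higher in the susceptible populations, and 10 lower and 1 higher in the resistant ones. The summed level of 19 features of vascular and lignifying tissue was 87.9 to 130 CPM in untreated and 120 to 215 CPM in sprayed libraries. Single features went both ways, with 9 called higher and 6 lower in the susceptible and 4 higher and 0 lower in the resistant populations. The sum of 23 epidermis and cuticle features was 119 to 183 CPM untreated and 93.0 to 143 CPM sprayed. Of these, 4 were called higher and 12 lower in the susceptible and 0 higher and 5 lower in the resistant populations. Pollen or flower markers summed to 0.836 to 3.51 CPM and the single fungal, insect or bacterial feature to 1.31 to 4.99 CPM, and no list held a feature without counts. These lists hold only features that the authors called changed, so neither their detection nor their direction is independent. The part of these cells in the wall results was not tested. In whole leaves, fewer cells of a type and less RNA per cell cannot be told apart.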

How the data were processed

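The authors deposited a table of raw counts per assembled reading frame for 32 libraries and a table of their own comparisons, whose columns per the file headers hold log2 fold changes and adjusted p-values from the authors. Libraries were made from 100 ng of total RNA with a stranded kit after rRNA depletion, per the labels' protocols. The submitters' processing notes name the aligner STAR (2.5.2b), FastQC (0.11.5) for read quality and DESeq2 (1.24.0) under R (3.6.1), and the strand setting of counting is not given in the sources used here. Members were found by description, and members, role groups and other lists were chosen with earlier results of these data known.

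From the deposited counts, 25036 of 39590 features passed edgeR's filterByExpr by group. A single quasi-likelihood fit (edgeR 4.0.16, R 4.3.3, TMM, robust dispersions, 8 group means, 24 residual degrees of freedom) gave log2 fold changes, with Benjamini-Hochberg adjustment over all features, a threshold of 0.05 and populations of a class weighted equally. The common biological coefficient of variation was 0.389 and TMM factors ran from 0.820 to 1.26. Libraries of 1 group differed beyond counting noise (lowest chi-square per degree of freedom 11.8), so each was counted as its own replicate. The labels call the 4 libraries of a group biological replicates.

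Named features were, in each role group, the member with most counts and those with the largest mean spray response up and down at 1 CPM or more, and all members of role groups of 3 or fewer (28 in all); further members are named as examples, chosen after their values were seen. Alternatives were relative-log-expression size factors, library totals alone, no filter, DESeq2 1.42.0, a replicate block and leaving out each library. The script was tested on simulated data. Features just inside the authors' threshold were galacturonosyltransferase 7 (adjusted p-value 0.0493 in the authors' deposited table) and expansin-B3-like (0.0481 in the authors' deposited table), and features outside it carry no description. No sequences were used here.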

Additional observations from a re-analysis of the deposited data

Results flagged for a closer look

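In 17 of 224 groups of 4 libraries checked for the named members, 1 library stood far from the other 3 by Dixon's criterion, where chance gives about 1 in 20. For the acidic glucan endo-1,3-beta-glucosidase these were sprayed S1 replicate 2 at 22.4 CPM, untreated S2 replicate 3 at 6.87 CPM and sprayed R2 replicate 1 at 12.7 CPM. Untreated S2 replicate 2 stood apart for pectin acetylesterase 2-like at 16.9 CPM, callose synthase 6 at 14.5 CPM, xyloglucan glycosyltransferase 1 at 8.71 CPM and the second fucosidase frame at 0.622 CPM. Sprayed S2 replicate 3 was lowest for callose synthase 3-like isoform X2 at 26.8 CPM and for XTH 30 at 15.1 CPM. The polygalacturonase was highest in untreated S2 replicate 4 at 16.9 CPM and lowest in untreated R2 replicate 4 at 11.2 CPM. Single libraries also stood apart for COBRA-like protein 7 (2.78 CPM, untreated R1 replicate 1) and COBRA-like protein 1 (5.08 CPM, sprayed S1 replicate 2). The same held for CslF3 (3.77 CPM, sprayed R1 replicate 4), callose synthase 12 (3.88 CPM, sprayed R2 replicate 3), arabinogalactan protein 9-like (14.8 CPM, sprayed S2 replicate 1) and the first fucosidase frame (5.07 CPM, untreated R1 replicate 3).

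The spray response differed between the classes for 5 members, a count of 1 higher and 4 lower in the resistant populations (0.563 percent of all features called), which is a combination of comparisons that chose the members and therefore a description. Glucan endo-1,3-beta-glucosidase 14 had a difference, resistant minus susceptible, of 0.74 on the log2 scale. Both reading frames of the glucan endo-1,3-beta-glucosidase on contig DN3963 had -0.78 and -0.85. Galacturonosyltransferase 11 had -0.67, with a response of 0.25 ± 0.11 in the susceptible and -0.42 ± 0.11 in the resistant populations. It was the least stable of the 5, its call being lost under 20 of 37 alternatives, against 2 to 7 of 37 for the other members. Endochitinase A-like had a fitted -7.87, which rests on 1 count in untreated susceptible, 34 in sprayed susceptible, 136 in untreated resistant and 11 in sprayed resistant libraries and is no measure of size.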

How the results depend on the processing

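With scaling by library totals alone, 2 members were called in sprayed S2 against S1, 28 between the untreated classes and 13 in the difference of responses, against 0, 16 and 5. Calls over all features moved too, in the same order to 25 higher and 265 lower, 3124 and 141, and 21 and 1008. They had been 151 and 185, 691 and 341, and 97 and 44. The log2 response of CslF6 (TRINITY_DN1786_c1_g1_i2.p1) in the susceptible populations turned to 0.0322. That scaling moved the median of all features by over 0.1 in several comparisons, to 0.30 in the susceptible response, 0.21 between untreated classes, -0.31 in the difference of responses and -0.18 in sprayed S2 against S1. Leaving out each library gave 50 to 58 called members in the susceptible response, 32 to 41 in the resistant, 8 to 22 between untreated and 5 to 10 between sprayed classes, 0 to 8 in the difference of responses, 0 to 1 in sprayed S2 against S1 and 0 to 0 in the other 5 comparisons within a class. The lowest untreated count, 8, came without untreated R1 replicate 1. The difference of responses had 0 calls without sprayed R1 replicate 3 or sprayed S1 replicate 2, 2 without sprayed S2 replicate 2, 3 without sprayed R2 replicate 2, sprayed S2 replicate 3, untreated R1 replicate 1, untreated R2 replicate 2 or untreated R2 replicate 3, and 8 without untreated S2 replicate 2. The cause was not tested. Replicate numbers did not pair the samples (same-number correlations from -0.0881 to 0.0884), and with a replicate block 53, 34, 14, 5 and 4 members were called in the susceptible response, the resistant response, the untreated and sprayed classes and the difference. Of 2352 recomputed fold changes of named members 2295 stayed within the spread, 56 moved, 46 of them by library totals, and 1 reversed. Members under 1 CPM rest on few counts a library, and their folds are limited by counting error.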
